A study of Mus musculus with 2 samples.

Results

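Genes of the insulin-like growth factor (IGF) axis were followed through 2 single-cell RNA libraries of a mouse lung tumour model. The set held 10 of the 34097 genes listed: the ligands Igf1 and Igf2, the receptor Igf1r, the binding proteins Igfbp2, Igfbp3, Igfbp4, Igfbp5, Igfbp6 and Igfbp7, and the non-coding RNA H19. The members were chosen by symbol, with their levels in these same libraries already known, so those levels are described and not tested. LLC cells, the mouse Lewis lung carcinoma line, had been grown in tumours that the labels call xenografts. One library was a control, and the other was labelled with a short hairpin RNA to knock down Gfpt2, an enzyme that makes the first committed product of the hexosamine pathway. The labels give no strain, age, number of animals or number of tumours per library. Each group is 1 library, so tumour, library and treatment cannot be told apart, and no difference below has a replicate check.

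IGF1 and IGF2 are small secreted hormones that activate the receptor tyrosine kinase IGF1R, which signals through insulin receptor substrates, PI3 kinase and AKT. In extracellular fluid most IGF is held by binding proteins, which block the receptor or prolong the life of the ligand, and proteases that cut them release it. H19 and Igf2 are neighbouring imprinted genes: H19 is read from the maternal copy and Igf2 from the paternal copy, and in adult tissue both are largely silent but can be active in tumours.

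Unique molecular identifiers (UMIs, which count captured RNA molecules) were summed over 2 main cell classes. Tumour-like cells had no UMI of Ptprc (the leukocyte antigen CD45), fewer than 5 Lyz2 UMIs per 10000 and at least 5000 UMIs in all. Macrophages had at least 10 UMIs of the complement genes C1qa, C1qb and C1qc per 10000. These gates took 4986 control and 5211 knockdown tumour-like cells, and 3990 and 4556 macrophages, of 10662 and 11450 kept cells. Krt16 is a stress keratin and Klk8 a kallikrein protease. The 232 control and 58 knockdown tumour-like cells with at least 5 UMIs of these 2 genes are called Krt16 Klk8 cells. CPM is the summed UMIs of a gene per 1000000 UMIs of the same cells. Intervals are exact 95% intervals and cover counting error only.

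The hairpin's target checked the labels. Gfpt2 had 212 UMIs in control and 57 in knockdown tumour-like cells, or 2.05 and 0.65 CPM. Of the control UMIs 137 lay in the Krt16 Klk8 cells, at 22.3 CPM, where the knockdown library had 5 UMIs. In the other tumour-like cells Gfpt2 was at 0.77 CPM (interval 0.61 to 0.96) for control and 0.60 CPM (0.45 to 0.79) for knockdown cells, so the intervals overlapped there. The tumour-like gate had Hmga2, a chromatin protein of embryonic and tumour cells, in 73.2% and 69.5% of cells, while the epithelial markers Epcam, Krt8 and Krt18 had between 0 and 9 UMIs each. It also had the mesenchymal gene Dcn at 1027 and 1076 CPM, so the label rests on the gate and on Hmga2, not on epithelial genes. The whole list of 6 tumour markers, which also holds Krt7 and Cd44, set the gate apart little from T cells. It summed to 374 and 377 CPM here, 342 and 316 CPM in T cells and 182 and 242 CPM in macrophages. The 6 fibroblast markers, Dcn included, summed to 1093 and 1163 CPM against 137 and 339 CPM in macrophages. Xist, listed as a marker of host cells, was at 2.88 and 3.99 CPM against 493 and 394 CPM. The gate held 7 control and 10 knockdown cells with at least 5 UMIs of endothelial markers. Both libraries shared 37 barcodes, and 12 control and 34 knockdown cells met both gates. The 8 macrophage markers summed to 514 CPM in control and 634 CPM in knockdown tumour-like cells, against 74667 and 61877 CPM in the macrophage gate.

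The reference promoters of 3 members are shown because these genes, each well counted in tumour-like cells, differed between the Krt16 Klk8 cells and the other tumour-like cells of the control library, with Igfbp4 and Igfbp6 high and Igf1r low in the first. Igfbp5 and H19 also differed there, so the 3 genes shown are not a ranking. Each line gives the 250 bases before the RefSeq start site on mouse build GRCm38.p6, 5′ to 3′ along the gene. Capitals mark the TATA box letters TATAAA or the GC box letters GGGCGG on either strand. The promoter table covered 9 members and not H19. The build the authors counted on is not given in the sources used here, so the positions are those of the reference.
Igfbp4, chr11:99040994-99041243, plus strand: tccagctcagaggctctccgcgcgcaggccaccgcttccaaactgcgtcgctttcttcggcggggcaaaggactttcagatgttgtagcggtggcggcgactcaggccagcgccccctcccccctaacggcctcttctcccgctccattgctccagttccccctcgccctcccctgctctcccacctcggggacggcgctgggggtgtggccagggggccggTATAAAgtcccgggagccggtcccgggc
Igfbp6, chr15:102143936-102144185, plus strand: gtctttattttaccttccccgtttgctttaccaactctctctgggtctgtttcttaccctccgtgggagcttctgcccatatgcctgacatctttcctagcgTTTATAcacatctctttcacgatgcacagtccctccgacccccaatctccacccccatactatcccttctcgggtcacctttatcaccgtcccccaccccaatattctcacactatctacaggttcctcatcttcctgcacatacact
Igf1r, chr7:67952007-67952256, plus strand: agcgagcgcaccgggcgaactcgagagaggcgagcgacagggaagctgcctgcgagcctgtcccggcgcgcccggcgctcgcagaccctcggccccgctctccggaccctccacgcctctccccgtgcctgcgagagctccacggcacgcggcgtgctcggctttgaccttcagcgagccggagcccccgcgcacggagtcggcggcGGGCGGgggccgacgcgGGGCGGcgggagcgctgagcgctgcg

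The Igfbp4 window held TATAAA beginning 28 bases before the start site (position -28) and no GGGCGG. The Igfbp6 window held it once, on the opposite strand at position -148, and had the lowest share of G and C of the 3, at 49.6%, against 69.2% for Igfbp4 and 77.6% for Igf1r. The Igf1r window held GGGCGG 2 times and no TATAAA. Of 32851 promoters in the same table, 12.4% held TATAAA and 32.7% held GGGCGG, with a median G and C share of 52.4%, so neither motif sets these genes apart from many others.

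H19 is the host of a microRNA, miR-675, cut from its own transcript. Both arms lie inside the H19 gene on the minus strand of chromosome 7 and are shown with the seed, bases 2 to 8, in capitals. The UMI count of H19 does not measure either arm.
miR-675-5p, chr7:142577112-142577133: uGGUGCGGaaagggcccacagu
miR-675-3p, chr7:142577078-142577099: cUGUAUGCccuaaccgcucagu

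Igf1, the ligand, was a macrophage transcript. Of its 1160 UMIs in kept control cells 95% lay in the macrophage gate, and of 752 in the knockdown library 91.4% did. The macrophage gate held 1102 control UMIs and 687 knockdown UMIs, or 46.4 CPM (43.7 to 49.3) and 31.9 CPM (29.6 to 34.4), a log2 ratio of -0.54 (-0.68 to -0.40). It stayed below 0 but moved with the processing, to -0.68 under TMM and the median of ratios, -0.57 with every cell weighted equally, -0.23 with the doublet caller's own threshold, -0.33 without cells holding Hmga2, Krt16 or Klk8 UMIs and -0.28 in the stricter gate described below. In the tumour-like gate Igf1 had 37 and 55 UMIs, or 0.36 and 0.63 CPM, in 36 and 55 cells. T cells had 6 control UMIs and none in the knockdown library. The main source of Igf1 RNA among the captured cells was therefore the C1q-positive population in both libraries.

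Igf2, the other ligand, was close to absent. The tumour-like gate held 7 control and 5 knockdown UMIs, or 0.07 and 0.06 CPM, and the macrophage gate held none in either library. Its neighbour H19 had 53185 and 62748 UMIs in those same tumour-like cells. The pair was thus split in both libraries, with H19 RNA in 3009 control and 3663 knockdown tumour-like cells and Igf2 RNA in 6 and 4.

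Igf1r, which binds both ligands, was read mostly in tumour-like cells, with 8277 control and 7326 knockdown UMIs. Its level there was 79.9 CPM (78.2 to 81.6) and 83.6 CPM (81.7 to 85.5), a log2 ratio of 0.07, which changed sign, to -0.0005 and -0.0015, under TMM and the median of ratios. Pooled over the 8 clusters that both libraries filled it was -0.05 (-0.10 to -0.002), and 0.06 with those clusters weighted equally, so its direction turned with the scaling and the weighting. Among the 8 tumour-like clusters with at least 50 cells in both libraries it ran from 43.6 to 95.2 CPM in the control and from 58.6 to 102 CPM in the knockdown library. In strictly gated macrophages, described below, it was at 12.2 and 15.95 CPM.

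Igfbp4, which binds both IGFs and is cut by the protease PAPP-A, differed more between the libraries over the whole tumour-like gate than the other 6 members with at least 100 UMIs in 1 library. This order holds only with the few endothelial-marker cells in the gate: without them Igfbp7 had a log2 ratio of 2.32, from 37 and 156 UMIs. Control tumour-like cells held 9622 UMIs, or 92.8 CPM (91.0 to 94.7), and knockdown cells held 4140, or 47.2 CPM (45.8 to 48.7). The log2 ratio was -0.98 (-1.03 to -0.92), which is 1.97-fold lower in the knockdown library. The other members of the 7 lay between -0.44 for Igfbp5 and 0.48 for H19. None of the 7 was past 2-fold, beside 0.897% of the 12372 genes with as many UMIs. Igfbp4 lay next to that limit and crossed it, at -1.04, when libraries were scaled by TMM or by the median of ratios. Their median log2 ratio was 0.14, and that of all these genes was 0.04.

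Igfbp6, a binding protein with a preference for IGF2, was at 252 CPM (249 to 255) in the control and 277 CPM (273 to 280) in knockdown tumour-like cells, a log2 ratio of 0.14. It was the most evenly spread binding protein, with a UMI in 90.4% and 89.4% of these cells. H19 was at 513 CPM (509 to 518) and 716 CPM (710 to 721), a log2 ratio of 0.48 (0.46 to 0.50). Igfbp2, Igfbp3, Igfbp5 and Igfbp7 were rare or confined to few cells. Igfbp2 had 1 UMI over all deposited control barcodes and 0 in the knockdown library.

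**Figure D1:**
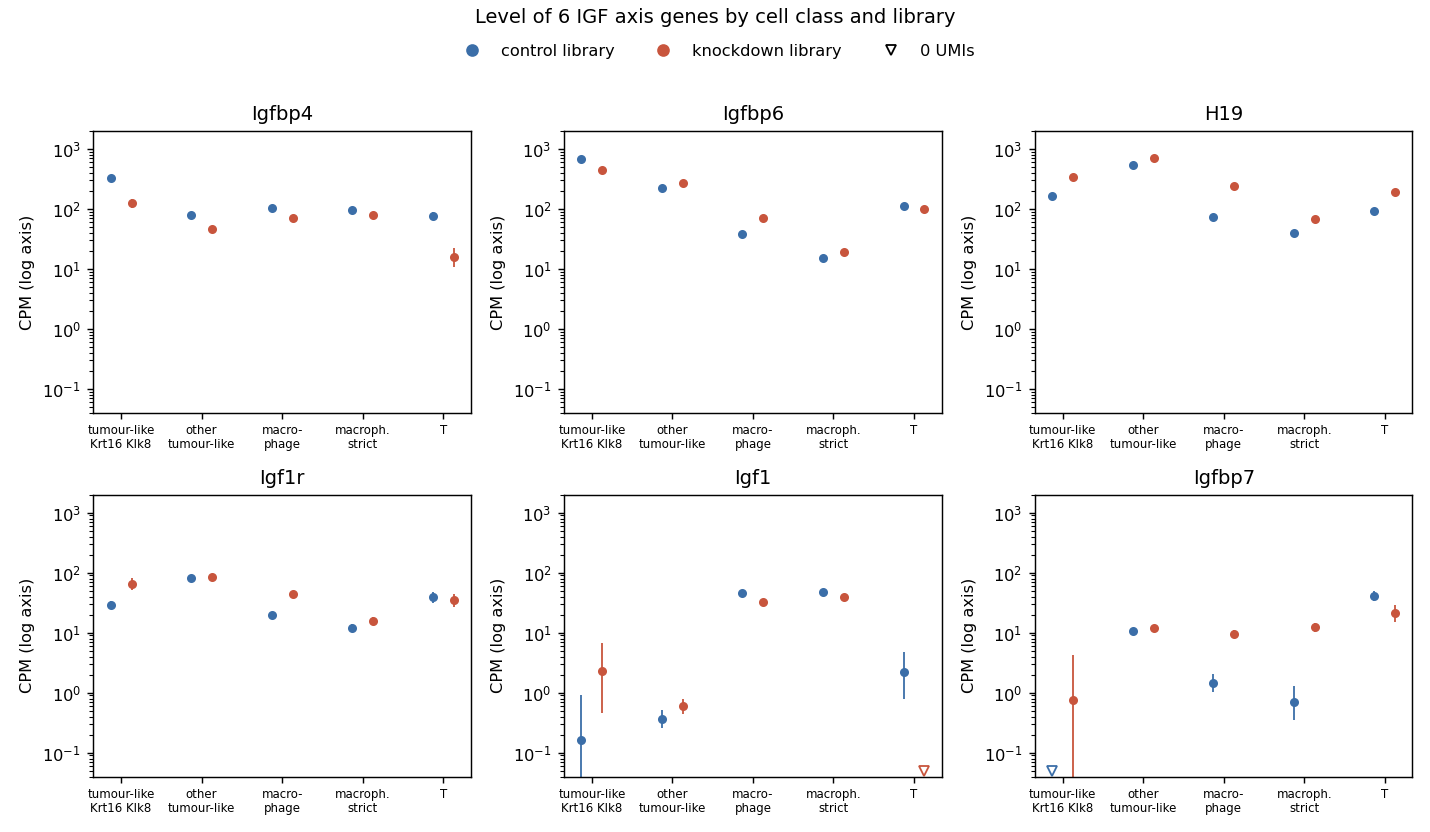
Level of 6 IGF axis genes in CPM (log axis) by cell class, control library in blue and knockdown library in red, with exact 95% counting intervals and open triangles for 0 UMIs. H19 and Igf1r were lower in control Krt16 Klk8 cells than in the other tumour-like cells while Igfbp4 and Igfbp6 were higher, and Igf1 stood at 46.4 and 31.9 CPM in macrophages against under 1 CPM in the other tumour-like cells.

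Krt16 Klk8 cells carried a distinct mixture of the axis. In the control library they had Igfbp4 at 323 CPM (309 to 338) against 78.3 CPM (76.6 to 80.1) in the other tumour-like cells, a log2 ratio of 2.04. Igfbp6 stood at 670 against 225 CPM, a log2 ratio of 1.57. Igfbp5, a matrix-bound binding protein, stood at 13.2 against 0.97 CPM, and its 81 UMIs came from 24 cells. H19 went the other way, at 167 against 535 CPM (log2 ratio -1.68), and so did Igf1r, at 29.3 against 83.1 CPM (log2 ratio -1.503).

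Igfbp5 had fewer than 100 control UMIs in each set of cells. Of the 6 members with at least 100 in 1 of them, 2 were more than 2-fold higher and 4 more than 2-fold lower in the Krt16 Klk8 cells. Of all 12130 genes counted in the same way, 8.27% were past 2-fold, 3.95% higher and 4.32% lower, and since the division was part of the choice of members nothing is read from the count. The 4 lower members included Igfbp3 and Igfbp7, which had 2 and 0 UMIs in these cells, and their level outside came from a handful of endothelial-marker cells described below.

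In the knockdown library the division at 5 UMIs was smaller. Igfbp4 stood at 124 CPM (106 to 144) in the 58 Krt16 Klk8 cells against 46.0 CPM in the others, a log2 ratio of 1.43. Igfbp6 was at 446 against 274 CPM (0.70), H19 at 340 against 722 CPM (-1.09) and Igf1r at 65.0 against 83.9 CPM (-0.37). At a limit of 10 UMIs, which left 20 cells, the ratios were 1.01 for Igfbp4, 1.27 for Igfbp6, -1.84 for H19 and -0.22 for Igf1r. Igfbp5 had no UMI in the 58 cells. Past 2-fold were 1 member higher and 4 lower of 7, beside 8.18% of 12137 genes, 2.11% higher and 6.07% lower. Of the 4 lower members Igfbp3, Igfbp5 and Igfbp7 had 0, 0 and 1 UMIs in these cells and were counted only through a few of the other cells, so nothing is read from this count either.

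Set against each other across libraries, the Krt16 Klk8 cells of the knockdown library had less Igfbp4 (log2 ratio -1.38, -1.62 to -1.15) and less Igfbp6 (-0.59), and more H19 (1.03) and more Igf1r (1.15). Of the 4 members with at least 100 UMIs in 1 library 2 were past 2-fold higher and 1 lower, beside 4.38% of 6638 genes past 2-fold in either direction (1.04% higher and 3.34% lower). Gfpt2, at 22.3 and 3.78 CPM in these cells, differed alongside. Its part in the difference was not tested. The sets also differed in makeup, since 159 of the 232 control cells but 20 of the 58 knockdown cells had 10 or more Krt16 and Klk8 UMIs. Among cells with 5 to 9 such UMIs Igfbp4 was at 177 CPM (157 to 200) against 141 CPM (117 to 169), H19 at 359 against 421 CPM and Igf1r at 48.3 against 61.0 CPM, with intervals that overlapped for these 3 genes, and Igfbp6 at 445 against 321 CPM. Among cells with 10 or more, the intervals of Igfbp4 (373 against 94.4 CPM), H19 (101 against 201 CPM) and Igf1r (22.8 against 71.8 CPM) lay apart, while those of Igfbp6 overlapped, at 748 CPM (723 to 773) against 660 CPM (590 to 737).

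The control levels also changed below and above the limit of 5 UMIs. In the control library Igfbp4 was at 71.8 CPM in cells with no Krt16 or Klk8 UMI, 133 CPM with 1 to 2, 244 CPM with 3 to 4, 177 CPM with 5 to 9 and 373 CPM with 10 or more. H19 passed from 546 CPM at 0 UMIs through 402 CPM at 3 to 4 and 359 CPM at 5 to 9 down to 101 CPM at 10 or more. Igf1r went from 84.5 to 22.8 CPM between the first and the last of these bins. The knockdown library showed less order. Its Igfbp4 was at 43.9, 95.4, 78.0, 141 and 94.4 CPM (69.1 to 126 in the last bin, of 20 cells) and its H19 at 734, 419, 531, 421 and 201 CPM. Igf1r was at 84.7 CPM in the first bin and 71.8 CPM (50.01 to 99.8) in the last.

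**Figure D2:**
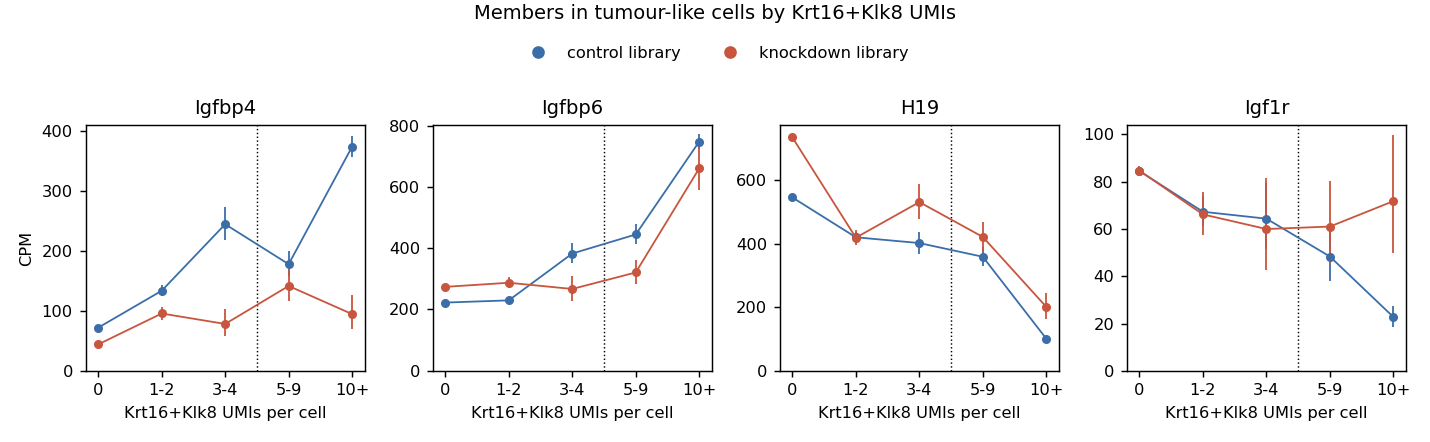
CPM (linear axis) of 4 members in tumour-like cells grouped by their Krt16 plus Klk8 UMIs, for both libraries, with exact 95% counting intervals and a dotted line at the limit of 5 UMIs. Control Igfbp4 climbed from 71.8 to 373 CPM while H19 went from 546 to 101 CPM between the first and the last bin.

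The knockdown library held fewer Krt16 Klk8 cells, so the comparison was repeated without them. They carried 20.6% of the Igfbp4 UMIs of control tumour-like cells and 3.96% of those of knockdown cells. Without them Igfbp4 was at 78.3 and 46.0 CPM, a log2 ratio of -0.77 (-0.82 to -0.71), H19 at 535 and 722 CPM (0.43), Igfbp6 at 225 and 274 CPM (0.28) and Igf1r at 83.1 and 83.9 CPM (0.01). None of the 7 members was past 2-fold, beside 0.765% of 12280 genes, of which 0.603% were higher and 0.163% lower.

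Igfbp4 was also high in some of the groups of cells that only the control library held in number. Tumour-like cells of both libraries were clustered together with the members and Gfpt2 left out of the genes that formed the clusters. Of 14 clusters, 8 had at least 50 cells in both libraries. A control cluster led by Mme, Tnfaip6, Pde4d, Apod and Lama4 (cluster 11, 116 control and 9 knockdown cells) had Igfbp4 at 668 CPM (638 to 700), the highest of any cluster of at least 50 cells. The cluster led by Krt16 and Klk8 (cluster 9, 186 control cells) had it at 385 CPM. The cluster led by Car6, Gadd45a and Plaur (cluster 8, 220 control and 14 knockdown cells) had it at 112 CPM for control and 111 CPM for knockdown cells. That control level was below the highest of the 8 clusters with at least 50 cells in both libraries, 140 CPM.

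These 3 clusters held 18.6%, 18.7% and 7.40% of the Igfbp4 UMIs of control tumour-like cells. Together with 3 other clusters that lacked 50 cells in at least 1 library, 46.0% of control Igfbp4 UMIs lay outside the 8 clusters both libraries filled. Within those 8 clusters, pooled, Igfbp4 was at 58.7 CPM for control and 45.9 CPM for knockdown cells (log2 ratio -0.35, interval -0.41 to -0.29). With the 8 clusters weighted equally the ratio was -0.56, from 61.8 and 42.0 CPM. Both were smaller in size than the log2 ratio of -0.98 over all tumour-like cells. Whether a cluster that is mostly of 1 library is a cell state or that library cannot be told apart here.

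In single clusters Igfbp4 was lower in the knockdown library in 6 of 8, in 5 of them with intervals that did not overlap. The widest gap was in the cluster led by Whrn and Cyba (cluster 3), at 140 CPM (131 to 150) for control and 65.5 CPM (61.7 to 69.5) for knockdown cells. The cluster led by the replication genes H1f5, Pclaf, Tk1 and Rrm2 (cluster 0) went the other way, also with intervals apart, at 43.5 CPM (40.7 to 46.5) and 49.95 CPM (47.0 to 53.0). The lowest control level was 17.4 CPM, in the cluster led by Islr, Ptn and Thsd7a (cluster 2), where the knockdown library had 22.1 CPM with an overlapping interval.

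H19 was higher in the knockdown library in 7 of the 8 shared clusters, each with intervals that did not overlap. The exception had the most H19: in the cluster led by the matrix genes Cilp, Ptn, Postn and Col1a1 (cluster 1) it was at 2093 CPM (2062 to 2124) for control and 1846 CPM (1821 to 1871) for knockdown cells. This cluster held 34.0% and 33.3% of tumour-like H19 UMIs. At the other end, the control-rich cluster led by Car6 had H19 at 24.0 CPM. Pooled over the 8 clusters H19 was at 579 and 720 CPM, a log2 ratio of 0.31.

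Igfbp6 was higher in the knockdown library in 7 of 8 shared clusters, 5 with intervals apart, and was highest in the control Krt16 Klk8 cluster, at 826 CPM (800 to 853). The same cluster had the lowest Igf1r of the clusters with at least 50 cells, at 15.8 CPM. The cluster led by Cryab, Lrrn4cl and Ero1a (cluster 5) had the most Igfbp6 among those both libraries filled, at 367 and 465 CPM.

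**Figure D3:**
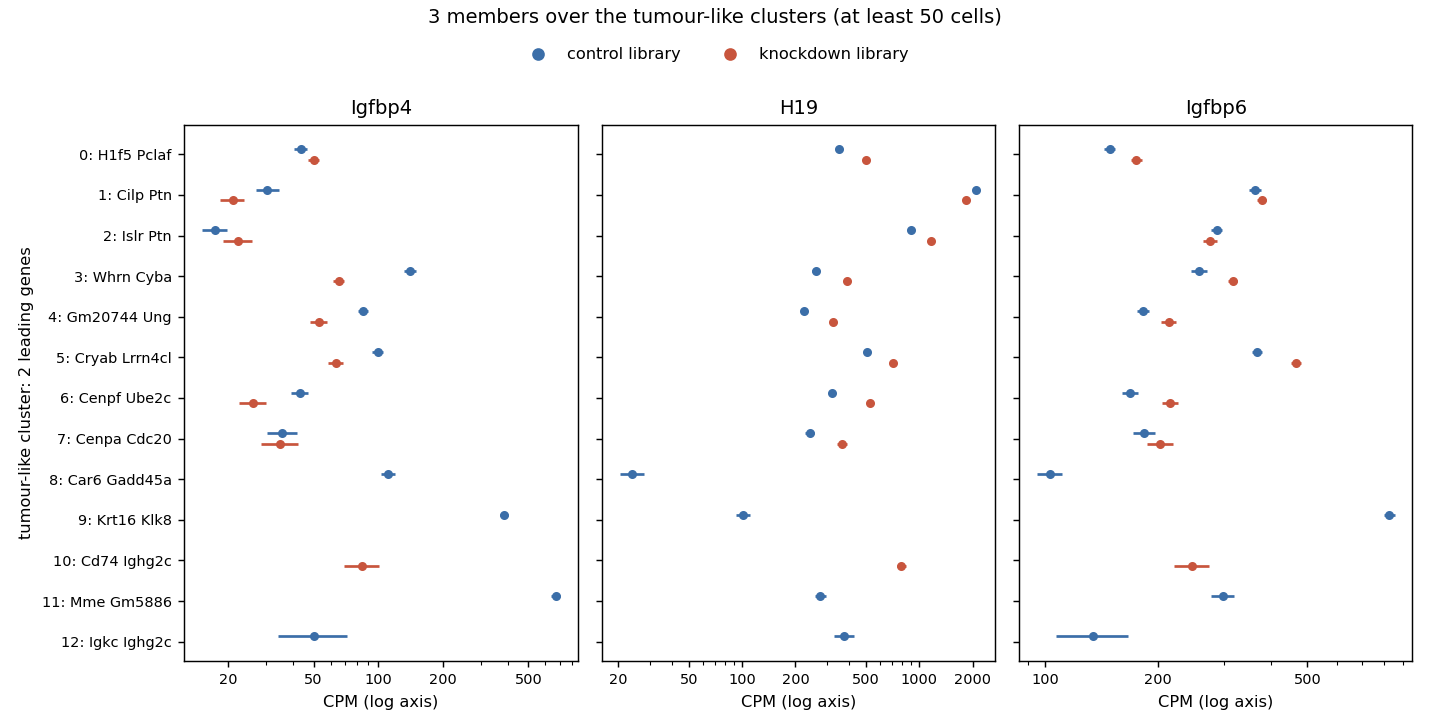
Igfbp4, H19 and Igfbp6 in CPM (log axes) in each tumour-like cluster, named by its number and 2 leading genes, for each library with at least 50 cells in it, with exact 95% counting intervals. Igfbp4 reached 668 CPM in a control cluster led by Mme, and H19 reached 2093 CPM in the cluster led by Cilp and Ptn, where Igfbp4 was at 30.4 CPM.

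Igfbp4 and H19 RNA tended to be read in different cells. Every tumour-like cell was thinned to 5000 UMIs to equalise the counts, which does not remove differences between shallow and deep cells. From cells of 5000 to 10000 UMIs to those of 20000 or more, control Igfbp4 rose from 62.5 to 103 CPM. Control H19 fell from 1086 to 314 CPM. In the knockdown library Igfbp4 went from 39.9 to 56.6 CPM and H19 from 1165 to 447 CPM. The part of depth in the split below was not tested. Among thinned cells without Krt16 Klk8 or endothelial-marker cells, control cells with an Igfbp4 UMI had a mean of 1.81 H19 UMIs and those without one had 3.76. In the knockdown library these means were 2.38 and 4.65. H19 was detected in 32.4% of Igfbp4-positive and 47.5% of Igfbp4-negative control cells, and in 41.7% and 56.5% of knockdown cells. Igfbp6 differed little by the same split, with means of 1.31 and 1.25 in the control and 1.52 and 1.46 in the knockdown library.

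Over 21 combinations of cluster and library with at least 50 cells, log2 levels of Igfbp4 and H19 had a Pearson r of -0.57. Of 8089 genes with a mean of at least 10 CPM, the 5 most like Igfbp4 were Ptges (r 0.85), a prostaglandin E synthase, Pmpca (0.83), a subunit of the mitochondrial processing peptidase, Cox17 (0.82), a copper chaperone, Pir (0.82) and Ptges2 (0.82). The 5 most like H19 were Dad1 (0.91), a subunit of the oligosaccharyltransferase, the matrix protein gene Postn (0.91), Haus7 (0.90), S100a13 (0.90) and Gng11 (0.88). The points share 2 libraries and differ in depth, so these values describe the pattern only. The lists depended on the clustering: of the 5 genes for Igfbp4 none, and of those for H19 only Haus7, were among the first 5 at both a coarser and a finer one.

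At equal depth the shares of tumour-like cells with a UMI followed the summed levels. Igfbp4 was detected in 20.2% (19.1 to 21.3) of control cells at this depth against 13.6% (12.7 to 14.6) after knockdown. Before thinning the shares were 39.3% and 27.3%. H19 was detected in 43.6% (42.2 to 45.0) and 54.4% (53.1 to 55.8), Igfbp6 in 61.5% and 66.0%, and Igf1r in 31.8% and 33.6%. T cells, a class that should lack tumour RNA, could be thinned only to 2000 UMIs, with 129 and 144 cells too shallow; they had H19 in 9.11% and 12.3% and Igfbp6 in 6.47% and 6.60% of cells, with median depths of 3019 and 2714 UMIs before thinning, against 18744 and 14667 UMIs in tumour-like cells.

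Igfbp4 had a long tail. Thinned cells with 5 or more Igfbp4 UMIs made up 1.48% of control and 0.42% of knockdown tumour-like cells, and the highest cell had 39 and 21. Without thinning, 228 of 4986 control cells and 209 of 5211 knockdown cells held 50% of the Igfbp4 UMIs. H19 divided the cells more broadly: 20.6% of control and 27.02% of knockdown cells had 5 or more thinned UMIs, while 56.4% and 45.6% had none.

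**Figure D4:**
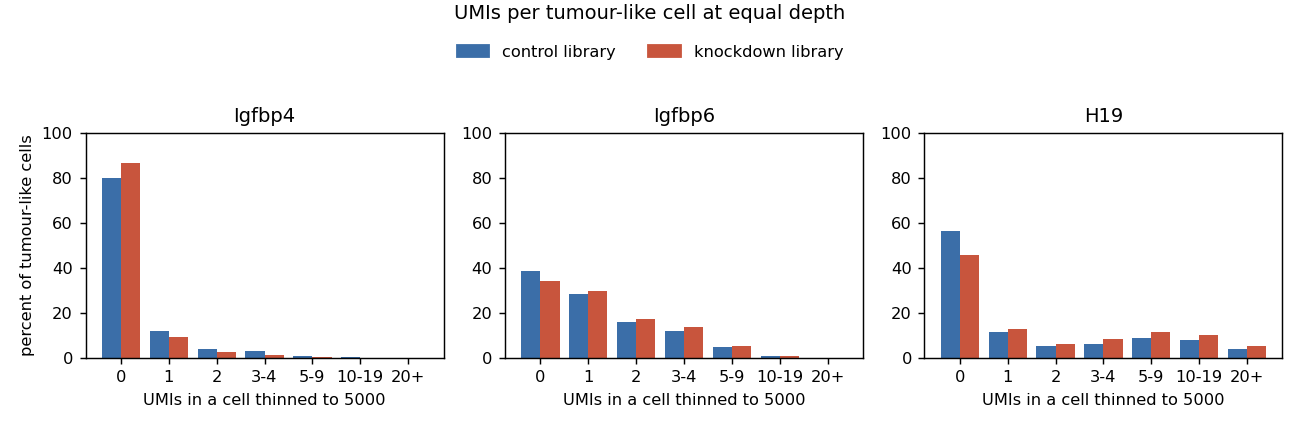
Percent of tumour-like cells by number of UMIs after each cell was thinned to 5000, for 3 members, control bars in blue and knockdown bars in red, with axes that start at 0. Of control cells 79.8% had no Igfbp4 UMI against 86.4% of knockdown cells, whereas cells without H19 made up 56.4% and 45.6%.

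H19 also moved with the depth of a cell. In control tumour-like cells of 5000 to 10000 UMIs it was at 1086 CPM, in those of 10000 to 20000 at 837 CPM, and in deeper cells at 314 CPM. The knockdown library had 1165, 905 and 447 CPM in the same bins, log2 ratios of 0.10, 0.11 and 0.51. Shallow cells were more common in the knockdown library, with 24.1% of its tumour-like cells in the first bin against 12.3% of control cells. The part of depth in the pooled ratio of 0.48 was not tested beyond these bins. Igfbp4 was lower in the knockdown library in every one of the 3 bins, with log2 ratios of -0.65, -1.003 and -0.86.

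Macrophages also held Igfbp4 UMIs. The endothelial-marker cells of the tumour-like gate had a higher level, 367 CPM (244 to 530) in the control and 407 CPM (289 to 557) in knockdown cells, but from 28 and 39 UMIs. The macrophage gate held 2437 control and 1520 knockdown UMIs, or 103 CPM (98.7 to 107) and 70.6 CPM (67.1 to 74.3), a log2 ratio of -0.54. H19 was at 73.6 and 243 CPM (log2 ratio 1.72), Igf1r at 19.7 and 44.0 CPM (1.16) and Igfbp6 at 37.9 and 71.7 CPM (0.92). Igfbp3 had 36 and 123 UMIs and Igfbp7 35 and 207. Past 2-fold were 4 of 7 members (H19, Igf1r, Igfbp3 and Igfbp7), all higher in the knockdown library, beside 5.58% of 10753 genes in that direction, 0.288% lower and 5.87% in either. The H19 and Igf1r ratios depended on the removal of doublets: with none removed they were 0.88 (205 and 377 CPM) and 0.41 (39.3 and 52.4 CPM), and 0.73 and 0.50 under the doublet caller's own threshold, where Igfbp6 turned to -0.13. Igf1r was at 0.30 with every cell weighted equally. Tumour genes moved with them: Hmga2 was at 32.8 and 88.2 CPM and Dcn at 125 and 296 CPM in the same gate. The 5 endothelial markers summed to 16.1 and 29.5 CPM there, and 50% of the Igfbp3 UMIs lay in 1 control and 2 knockdown cells and 50% of the Igfbp7 UMIs in 7 and 3. The part of these genes in the ratios was not tested.

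A stricter gate was therefore added after the data were seen, with at least 50 C1q UMIs per 10000, a Ptprc UMI and no Hmga2 UMI. It held 2377 control and 2155 knockdown cells, with Dcn at 46.0 and 67.3 CPM. Igfbp4 was at 97.8 CPM (92.9 to 103) for control and 79.2 CPM for knockdown cells (log2 ratio -0.30, interval -0.43 to -0.18). Igf1 was at 48.0 and 39.6 CPM (-0.28), Igfbp6 at 15.3 and 19.1 CPM (0.32), Igf1r at 12.2 and 15.95 CPM (0.39) and H19 at 39.4 and 69.1 CPM (0.81). Pooled over the clusters of this gate that both libraries filled, the H19 ratio was 0.39, and 29.5% of its control UMIs lay outside them. Of 6 members counted, 1 was past 2-fold and higher, beside 0.427% of 9134 genes in that direction, 0.263% lower and 0.69% in either. That member was Igfbp7, with 11 and 134 UMIs, and 122 of the latter lay in 1 cluster of 105 cells led by Dcn, Sparc and Ptn.

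Igfbp4 and H19 differed in their course across the C1q gradient. In the control library H19 was at 412, 296, 177 and 31.4 CPM in cells with 10 to 20, 20 to 50, 50 to 100 and 100 or more C1q UMIs per 10000, a steady descent. Igfbp4 was at 96.3, 159, 29.3 and 104 CPM in the same bins, with no such order. In the knockdown library H19 went from 673 CPM in the first bin to 56.4 CPM in the last, while Igfbp4 was at 45.8, 48.2, 41.5 and 84.7 CPM. Just outside the gate, at 5 to 10 C1q UMIs per 10000, Igfbp4 was at 62.8 and 40.9 CPM in the control and knockdown libraries and H19 at 433 and 794 CPM. For each H19 UMI there were 0.18 Igfbp4 UMIs in control tumour-like cells, 0.84 in T cells and 2.48 in strictly gated macrophages, and 0.07, 0.08 and 1.15 in the knockdown library. At 2000 UMIs per cell Igfbp4 was detected in 16.5% (15.04 to 18.1) of control and 13.8% (12.3 to 15.4) of knockdown strictly gated macrophages, against 5.04% and 1.57% of T cells.

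Within the strictly gated macrophages Igf1 was read unevenly over 8 clusters that both libraries filled. The cluster led by Chil3 and Ly6c2 (cluster 3) had 80.8 and 82.8 CPM, and the one led by Mmp12, Hspb1 and Hmox1 (cluster 6) had 84.0 CPM (68.4 to 102) for control and 46.8 CPM (32.4 to 65.4) for knockdown cells. The cluster led by the cell division genes H2ac8, Birc5 and Ube2c (cluster 5) had 16.9 and 15.1 CPM. Igf1 was lower in the knockdown library in 6 of 8 clusters, in 1 with intervals apart. Igfbp4 was also lower in 6 of 8, in none with intervals apart, and had its lowest levels, 39.5 and 42.7 CPM, in cluster 6. Over 17 combinations of cluster and library the Pearson r of Igf1 and Igfbp4 was -0.44. Pooled over the 8 clusters, Igf1 was at 48.9 and 41.7 CPM (log2 ratio -0.23) and H19 at 29.0 and 38.0 CPM (0.39). Igf1r was at 12.5 and 12.7 CPM (0.02, -0.31 to 0.36) and Igfbp6 at 12.4 and 13.2 CPM (0.09, -0.25 to 0.42), so both of these intervals held 0.

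**Figure D5:**
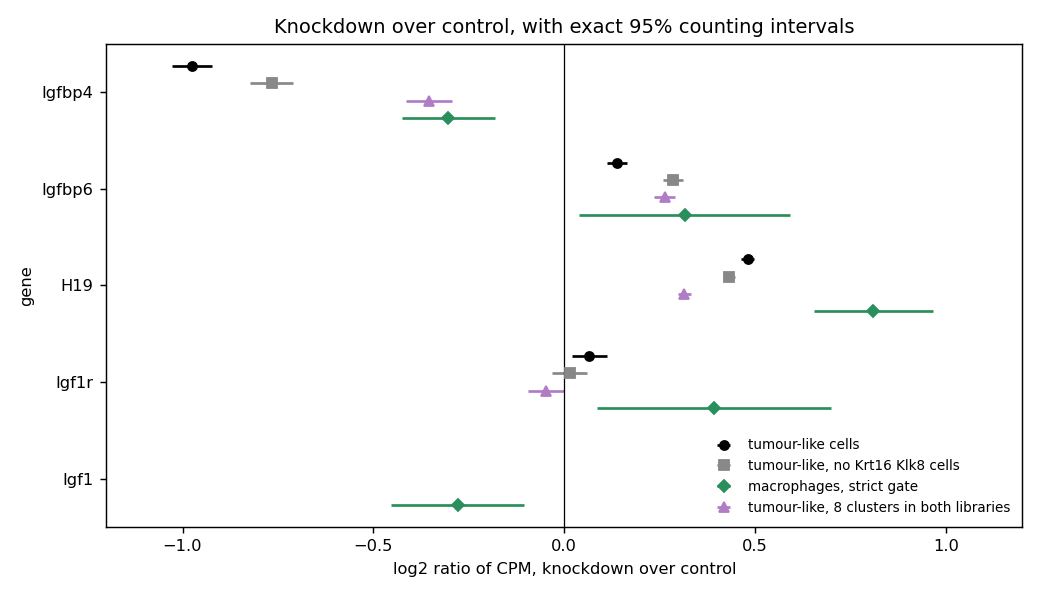
Log2 ratio of CPM, knockdown over control, for 5 members with exact 95% counting intervals, in tumour-like cells, in tumour-like cells without Krt16 Klk8 cells, in the 8 tumour-like clusters filled by both libraries and in strictly gated macrophages. Igfbp4 lay below 0 in all 4 sets, from -0.98 to -0.30, and H19 above 0, from 0.31 to 0.81. The 0.81 was that of strictly gated macrophages, and pooled over their 8 clusters that both libraries filled it was 0.39.

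Igfbp3 and Igfbp7 marked endothelial cells within the tumour-like gate. Igfbp3 is the main carrier of IGF in blood, and Igfbp7 is a low-affinity binder of vessel walls. The 7 control and 10 knockdown cells with at least 5 UMIs of Pecam1, Cdh5, Emcn and Plvap held 96.4% and 96.2% of the Igfbp3 UMIs of the gate and 96.5% and 85.0% of the Igfbp7 UMIs. In those cells Igfbp3 was at 8470 and 6963 CPM and Igfbp7 at 13367 and 9218 CPM. Without them Igfbp3 had 24 and 26 UMIs in the gate, and Igfbp7 had 37 and 156, or 0.36 and 1.78 CPM, of which 3 knockdown cells held 50%. The tumour-like levels of both genes, 6.47 and 7.91 CPM for Igfbp3 and 10.2 and 11.9 CPM for Igfbp7, are thus levels of very few cells.

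Igfbp5 was almost as scattered. Its 176 control and 110 knockdown UMIs in tumour-like cells came from 41 and 20 cells, and 5 and 4 cells held 50% of them. In the control library 46.0% lay in Krt16 Klk8 cells and 38.1% in the cluster led by Cryab, whereas 58.2% of knockdown UMIs lay in the cluster led by Cilp. The pooled level was 1.70 and 1.25 CPM.

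T cells held little Igfbp4 once cells with tumour RNA were left out. Its level over all T cells was 77.2 CPM in the control against 15.8 CPM, and it stood at 18.9 CPM (12.4 to 27.5) and 9.50 CPM (4.74 to 17.0) in the T cells without an Hmga2 or H19 UMI (435 control and 378 knockdown cells). Of the 213 control UMIs in T cells 55.9% lay in 5 cells. The NK, dendritic, monocyte and endothelial gates held between 2 and 123 cells per library and are not compared.

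Over the whole tumour-like gate the other genes of the pathway differed little between the libraries. Of 31 IGF signalling genes, 23 had at least 100 UMIs in the tumour-like gate of 1 library, and none was past 2-fold. Their median log2 ratio was 0.07 beside 0.04 for all genes, with 18 higher and 5 lower, and 0.897% of all genes were past 2-fold. Only Cd93, an endothelial receptor for IGFBP7, was past 0.5 in size, at 0.91 and 1.59 CPM (log2 ratio 0.81). The rest lay between -0.21 for Igf2bp2, an RNA-binding protein that binds Igf2 messages, and 0.43 for Adamts1, a matrix protease. Pappa, the protease that cuts IGFBP4, had 21 control and 19 knockdown UMIs, and its inhibitor Stc2 was at 6.49 and 6.68 CPM. Htra1, a protease that can cut several binding proteins, was at 772 and 813 CPM.

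In Krt16 Klk8 cells of the control library 1 of 22 counted signalling genes was more than 2-fold higher than in the other tumour-like cells and 3 were more than 2-fold lower, beside 3.95% of all genes higher and 4.32% lower. The list's median log2 ratio was -0.29 beside -0.02 for all genes. Stc2 was the higher one, at 14.0 against 6.02 CPM (log2 ratio 1.22). Irs1 and Irs2, the adaptors that link the receptor to PI3 kinase, were lower, at 7.98 against 23.0 CPM (-1.53) and 3.74 against 8.77 CPM (-1.23), and Htra1 was at 394 against 796 CPM (-1.01). Sos1 was at -0.80 and Pik3r1, a regulatory subunit of PI3 kinase, at 0.55. In the knockdown library Stc2 had a log2 ratio of 1.21, from 20 UMIs in the Krt16 Klk8 cells, and Irs2 one of -0.69. Shc1 (-0.82), Pik3ca (-0.78), Pik3r1 (-0.54), Igf2bp3 (-0.58) and Cd93 (-1.08) rested on at most 22 UMIs each in those cells. The ratios of Irs1 and Htra1 did not reach 0.5 in size in the knockdown library.

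In the macrophage gate 4 of 22 signalling genes were more than 2-fold higher in the knockdown library, beside 5.58% of all genes, namely Adamts1 (log2 ratio 1.88), Grb10 (1.51), Htra1 (1.35) and Irs1 (1.197), and Igf2bp2 (0.83) and Igf2r (0.59) were past 0.5. Lrp1, a scavenger receptor that macrophages express, was lower at 192 and 132 CPM (-0.54). In the strict gate none of 19 was past 2-fold, beside 0.69% of all genes, Htra1 was at 36.8 and 61.8 CPM (0.75) and Shc1 at 17.6 and 12.2 CPM (-0.53). The tumour genes named above differed alongside in the wider gate, and their part was not tested.

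Of 27 imprinted genes listed beside H19, 11 had at least 100 UMIs in the tumour-like gate of 1 library. None of the 11 was past 2-fold, beside 0.897% of 12372 genes. In the knockdown library 9 were higher and 2 lower, with a median log2 ratio of 0.08 beside 0.04 for all genes. Peg3, a zinc finger gene read from the paternal copy, was at 3.69 and 6.21 CPM (0.75), and Plagl1 at 5.95 and 7.87 CPM (0.40). Cdkn1c, a cell cycle inhibitor at the other end of the same imprinted cluster as H19, was at 2.61 and 2.77 CPM (0.08). Dlk1 and Meg3, the pair of another imprinted locus, had 0 UMIs in the control and 2 and 13 in the knockdown library. Without Krt16 Klk8 cells Plagl1 had a log2 ratio of 0.80, Peg3 one of 0.75 and Cd93 one of 0.76.

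Plagl1, a zinc finger factor, was itself a gene of the control Krt16 Klk8 cells, at 28.5 against 4.53 CPM in the other tumour-like cells (log2 ratio 2.65), with Phlda2 (1.25) and Cdkn1c (0.75) also higher and Nnat (-0.86) lower. In the knockdown Krt16 Klk8 cells it had 8 UMIs, or 6.05 CPM. Against the other knockdown cells Phlda2 (log2 ratio 1.33), Peg3 (-1.05) and Nnat (-0.53) differed by more than 0.5, from 5, 4 and 2 UMIs in the Krt16 Klk8 cells. Across libraries in these cells Plagl1 (-2.24), Pik3r1 (-1.25) and Shc1 (-0.62) were lower and Htra1 (0.88), Cd81 (0.55) and Impact (0.53) were higher in the knockdown library.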

How the data were processed

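Both libraries were 10x Genomics libraries of LLC tumours, 1 control and 1 with a hairpin RNA against Gfpt2. The authors deposited UMI counts per gene and barcode, per the file headers made with Cell Ranger 6.1.0, while the submitters' processing notes name version 3.1.0. The genome build is not given in the sources used here. The control library held 11977 barcodes and 165824226 UMIs (median 10312), the knockdown library 12853 barcodes and 138402860 UMIs (median 7496).

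Barcodes with under 200 genes (34 and 19) or over 20% mitochondrial UMIs (164 and 72) were left out. Doublets were scored with Scrublet and the highest scores removed at 0.8% per 1000 cells (1148 and 1322 cells), since its own threshold marked 9.09% and 21.8%. Counts were summed per class and divided by the summed UMIs. Intervals are exact at 95% (Poisson for CPM, conditional binomial for ratios, Clopper-Pearson for shares) and cover counting error only. With 1 library per group no test was made. A ratio was counted where 1 group had at least 100 UMIs.

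Clustering used scanpy 1.11.5 and leidenalg 0.10.2 on 2000 variable genes, 30 components and 15 neighbours, with scaling alternatives from edgeR 4.0.16. Likeness is Pearson r of log2(CPM + 1). The ratios and intervals were run on simulated summed counts with Poisson error only. UMIs clumped in few cells were not simulated, so that run does not check the intervals for such genes. Named were all 10 members, genes of the 31 IGF signalling and 27 imprinted genes with at least 100 UMIs and a log2 ratio of 0.5 or more in size, and the 5 genes most like Igfbp4 and H19; other pathway genes and clusters named were chosen after their values were seen. Members, lists and gates were chosen with earlier results of these data known. Promoters and miRNAs are from RefSeq tables on GRCm38.p6.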

Additional observations from a re-analysis of the deposited data

How the results depend on the processing

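No paired analysis was possible because each group is 1 library and the labels give no replicate numbers. Replicate error is unknown throughout. Few UMIs or few cells limit Igf2, Igfbp2 and, in tumour-like cells, Igf1, Igfbp3, Igfbp5 and Igfbp7. The 4 alternatives on endothelial-marker cells, the strict macrophage gate and shared clusters were chosen after seeing the data. For each result below the cause of a change was not tested.

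Over 12 alternatives the Igfbp4 ratio in tumour-like cells lay between -1.04 and -0.93 on the log2 scale (-1.04 under TMM and under the median of ratios), and was -0.35 in shared clusters (-0.56 with clusters weighted equally). Without Krt16 Klk8 cells it was -0.83 under TMM and -0.84 under the median of ratios. H19 in tumour-like cells lay between 0.39 and 0.50 over the same 12 and was 0.31 in shared clusters. The control Igfbp4 ratio of Krt16 Klk8 over other cells was 2.20 with every cell weighted equally and 2.22 with at least 10 Krt16 and Klk8 UMIs. Igf1 in macrophages was -0.23 under Scrublet's own threshold, -0.68 under the median of ratios, -0.33 without Hmga2, Krt16 or Klk8 UMIs and -0.28 in the strict gate. Igfbp6 in macrophages was -0.13 under Scrublet's own threshold and 0.92 in the main setting. TMM and the median of ratios moved all macrophage ratios by 0.14.

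Of the members past 2-fold in macrophages 2 were left, Igfbp3 and Igfbp7, with no doublet removal, with Scrublet's own threshold and over every barcode. The same 2 of the same 7 members were past it in the strict gate. In tumour-like cells 1 was past it under several alternatives, but not the same gene. It was Igfbp4 under TMM and the median of ratios (-1.04). It was Igfbp7 without Xist or endothelial-marker UMIs (0.38 and 1.15 CPM), without endothelial-marker cells (2.32) and in shared clusters (2.27). Without Krt16 Klk8 cells the counts were 2 without Xist or endothelial-marker UMIs (Igfbp5 and Igfbp7) and 1 without endothelial-marker cells (Igfbp7). The share of all genes past 2-fold was not counted for these settings other than the strict gate, so nothing is read from them. Among ratios of Krt16 Klk8 over other cells, those that changed sign were Igfbp3 in control Krt16 Klk8 over other cells, 0.75 without Xist or endothelial-marker UMIs, and Igfbp7 in the knockdown library, 0.82 at a limit of 3 Krt16 and Klk8 UMIs. Among knockdown over control ratios in tumour-like cells, Igf1r was below 0 under both scalings and in shared clusters (-0.05, but 0.06 with clusters weighted equally), and, without Krt16 Klk8 cells, under 4 of 13 alternatives (lowest -0.06). Igfbp5 was above 0 without Xist or endothelial-marker UMIs (0.04) and in shared clusters (0.33, but -0.16 with clusters weighted equally). With a lowest total of 10000 UMIs Igfbp3 was at -0.23 and Igfbp7 at -0.68, and without Krt16 Klk8 cells -0.29 and -0.75; a lowest total of 2000 there gave -0.06 and -0.01. Over all single-gene values outside the main ratios and counts, those just named included, 212 stayed within their interval and 140 moved outside it, and sign changes of smaller ratios are counted in both; the remaining 2 are the sign changes of Krt16 Klk8 over other cells given above, the ones past 2-fold to begin with.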
